A study of Drosophila melanogaster with 2 samples.

Results

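The ecdysone response genes described here are 10 *Drosophila melanogaster* genes, chosen by their place in the steroid hormone pathway and not by the strength of a peak: *EcR*, *usp*, *br*, *Eip74EF*, *Eip75B*, *Eip78C*, *Hr39*, *ftz-f1*, *Eip93F* and *E23*. Earlier results of these data were known when the genes were chosen. They are 10 of the 13945 protein-coding genes on the chromosome arms used. For each of them every Bab2 peak was taken whose summit lay in the gene span or within 10 kb of it. Bab2 is a transcription factor with a BTB domain, known for its work in leg, ovary and pigmentation development. The data were peak lists of chromatin immunoprecipitation followed by sequencing (ChIP-seq) from a stable transgenic fly line whose Bab2 carries eGFP at its C-terminus, pulled down with an antibody against GFP. Whole embryos of both sexes, 0 to 24 h old, gave 1 group of 2 libraries, biological replicates 2 and 3, from separate biosamples of the same line. Chromatin was sonicated to 200 to 800 bp. No other group was available for a comparison, and the control experiment that the labels name as possible was not analysed here. Peak lists hold no expression values, so the label of whole embryos could not be checked against marker genes, and a peak does not tell in which embryonic cells or at which hour the protein was bound.

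Ecdysone is the steroid hormone that times molting and metamorphosis in insects, and a pulse of it also runs in the middle of fly embryogenesis. Its receptor is a pair of nuclear receptors, EcR and USP, that sits on DNA and switches on a first tier of genes when hormone is bound. The products of that first tier are mostly transcription factors, among them Broad, E74 and E75, and they in turn drive or shut off later genes in a fixed order. Many genes of the pathway are long and carry several promoters, which make different protein isoforms.

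The peaks that the results turn on are shown by their sequence around the summit, read from the RefSeq release 6 genome (dm6) on the strand of the gene, 5′ to 3′. They are the peaks nearest to a promoter at *E23* and *Eip75B*, both *Eip75B* peaks that share a word, the only peak of *br*, an overlapping pair in *ftz-f1*, the strongest of the 32 peaks of the set (next to *usp*) and the only peak in the span of *Eip78C*. Capitals mark 4 words on either strand: the A/T-rich word TAAATA, the homeodomain word TAATTA, the GAGA factor word GAGAG, and AGATGGCG; their counts are given further on. The *Eip75B* run of rank 433 ends at the transcript start, and the other runs reach 50 bp to either side of the summit.
usp peak of rank 91, chrX:2050246-2050346, minus strand: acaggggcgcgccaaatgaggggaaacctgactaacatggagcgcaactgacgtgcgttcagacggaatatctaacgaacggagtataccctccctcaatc
br peak of rank 776, chrX:1618831-1618931, plus strand: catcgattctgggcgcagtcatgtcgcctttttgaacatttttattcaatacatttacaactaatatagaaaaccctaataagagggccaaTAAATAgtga
Eip75B peak of rank 433, chr3L:17999822-17999880, minus strand: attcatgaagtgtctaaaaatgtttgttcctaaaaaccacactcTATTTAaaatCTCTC
Eip75B peak of rank 1320, chr3L:18019757-18019857, minus strand: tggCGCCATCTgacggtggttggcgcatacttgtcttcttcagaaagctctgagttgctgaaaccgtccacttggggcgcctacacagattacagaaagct
Eip75B peak of rank 2454, chr3L:17988266-17988366, minus strand: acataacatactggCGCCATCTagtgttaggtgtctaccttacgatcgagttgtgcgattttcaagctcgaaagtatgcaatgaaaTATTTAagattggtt
Eip78C peak of rank 3123, chr3L:21253846-21253946, plus strand: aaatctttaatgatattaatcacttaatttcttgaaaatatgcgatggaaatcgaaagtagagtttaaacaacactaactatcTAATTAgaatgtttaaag
ftz-f1 peak of rank 1847, chr3L:18769400-18769500, minus strand: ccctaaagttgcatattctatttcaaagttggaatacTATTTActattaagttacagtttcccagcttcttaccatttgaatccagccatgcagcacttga
ftz-f1 peak of rank 2605, chr3L:18769600-18769700, minus strand: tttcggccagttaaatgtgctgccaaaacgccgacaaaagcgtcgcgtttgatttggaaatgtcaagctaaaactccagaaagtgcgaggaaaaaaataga
E23 peak of rank 318, chr2L:3354987-3355087, minus strand: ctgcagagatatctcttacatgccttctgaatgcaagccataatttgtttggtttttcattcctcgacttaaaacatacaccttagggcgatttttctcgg

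The optimal list, which the authors kept for agreement between the replicates, held 4720 peaks with a median signal of 128 and a median width of 424 bp. The signal is the authors' value per peak from the pooled reads, and how it was scaled was not stated in the labels. It served only to describe and rank peaks within a list, with rank 1 the strongest. The relaxed lists, which hold peaks together with background by design, were longer, with 24109 pooled peaks, 27372 in replicate 2 and 25804 in replicate 3. Lists of different length give ranks that show no change between them. The number of reads per library is unknown, so a gene without a peak is one where none was called at this unknown depth.

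All 10 ecdysone response genes had at least 1 optimal summit in their window, where 63.1% of all protein-coding genes did. The windows differ in length, with a median of 75.7 kb for the 10 genes and 22.2 kb for all genes, and among genes with a span of 20 kb or more the share was 73.1%. Together the 10 windows covered 747 kb and held 32 optimal peaks. The relaxed lists placed 216 pooled peaks, 228 replicate 2 peaks and 215 replicate 3 peaks in the same windows. Most optimal peaks sat in few genes: *EcR*, *Eip75B* and *ftz-f1* held 22 of the 32, and 5 genes had 1 each. A pair of overlapping peaks in *Eip75B* and another in *ftz-f1* leave 30 separate sites.

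Of the 32 summits, 25 lay in introns of the gene itself, 1 in a 5′ UTR, 3 upstream and 3 downstream of the span. Within the spans the intronic share was 96.2% for the 10 genes (25 of 26) and 96.0% for other genes of 20 kb or more (1279 of 1332), so it is the usual one for long genes. Over the windows it was 78.1% for the 10 genes (25 of 32) and 54.5% for the other long genes (1279 of 2348). These intronic shares count a summit once for each gene that holds it. Among the 10 genes, *usp* and *E23* are shorter than 20 kb, and the difference was not tested. A summit within 500 bp of an own transcript start was found for 4 of the 10 genes (*EcR*, *usp*, *Eip75B* and *E23*), where 20.1% of all protein-coding genes and 25.7% of those of 20 kb or more had one. All 4 of these summits lay on the upstream side of the start. Counting starts of any protein-coding gene, 8 of the 32 peaks were within 500 bp, which is 25% (95% Clopper-Pearson interval 11.5 to 43.4, for counting error only). The same share was 35.4% over 2124 distinct peaks of other genes of 20 kb or more and 46.4% over all optimal peaks. Taking only the gene spans, it was 11.5% for the 10 genes (3 of 26) and 16.3% for the other long genes. The interval of the 10 genes for the spans was 2.45 to 30.2. Both intervals take the peaks as independent, while 22 of the 32 lay in the windows of *EcR*, *Eip75B* and *ftz-f1*. They therefore cannot decide a difference from the other long genes, and no test was made.

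**Figure D1:**
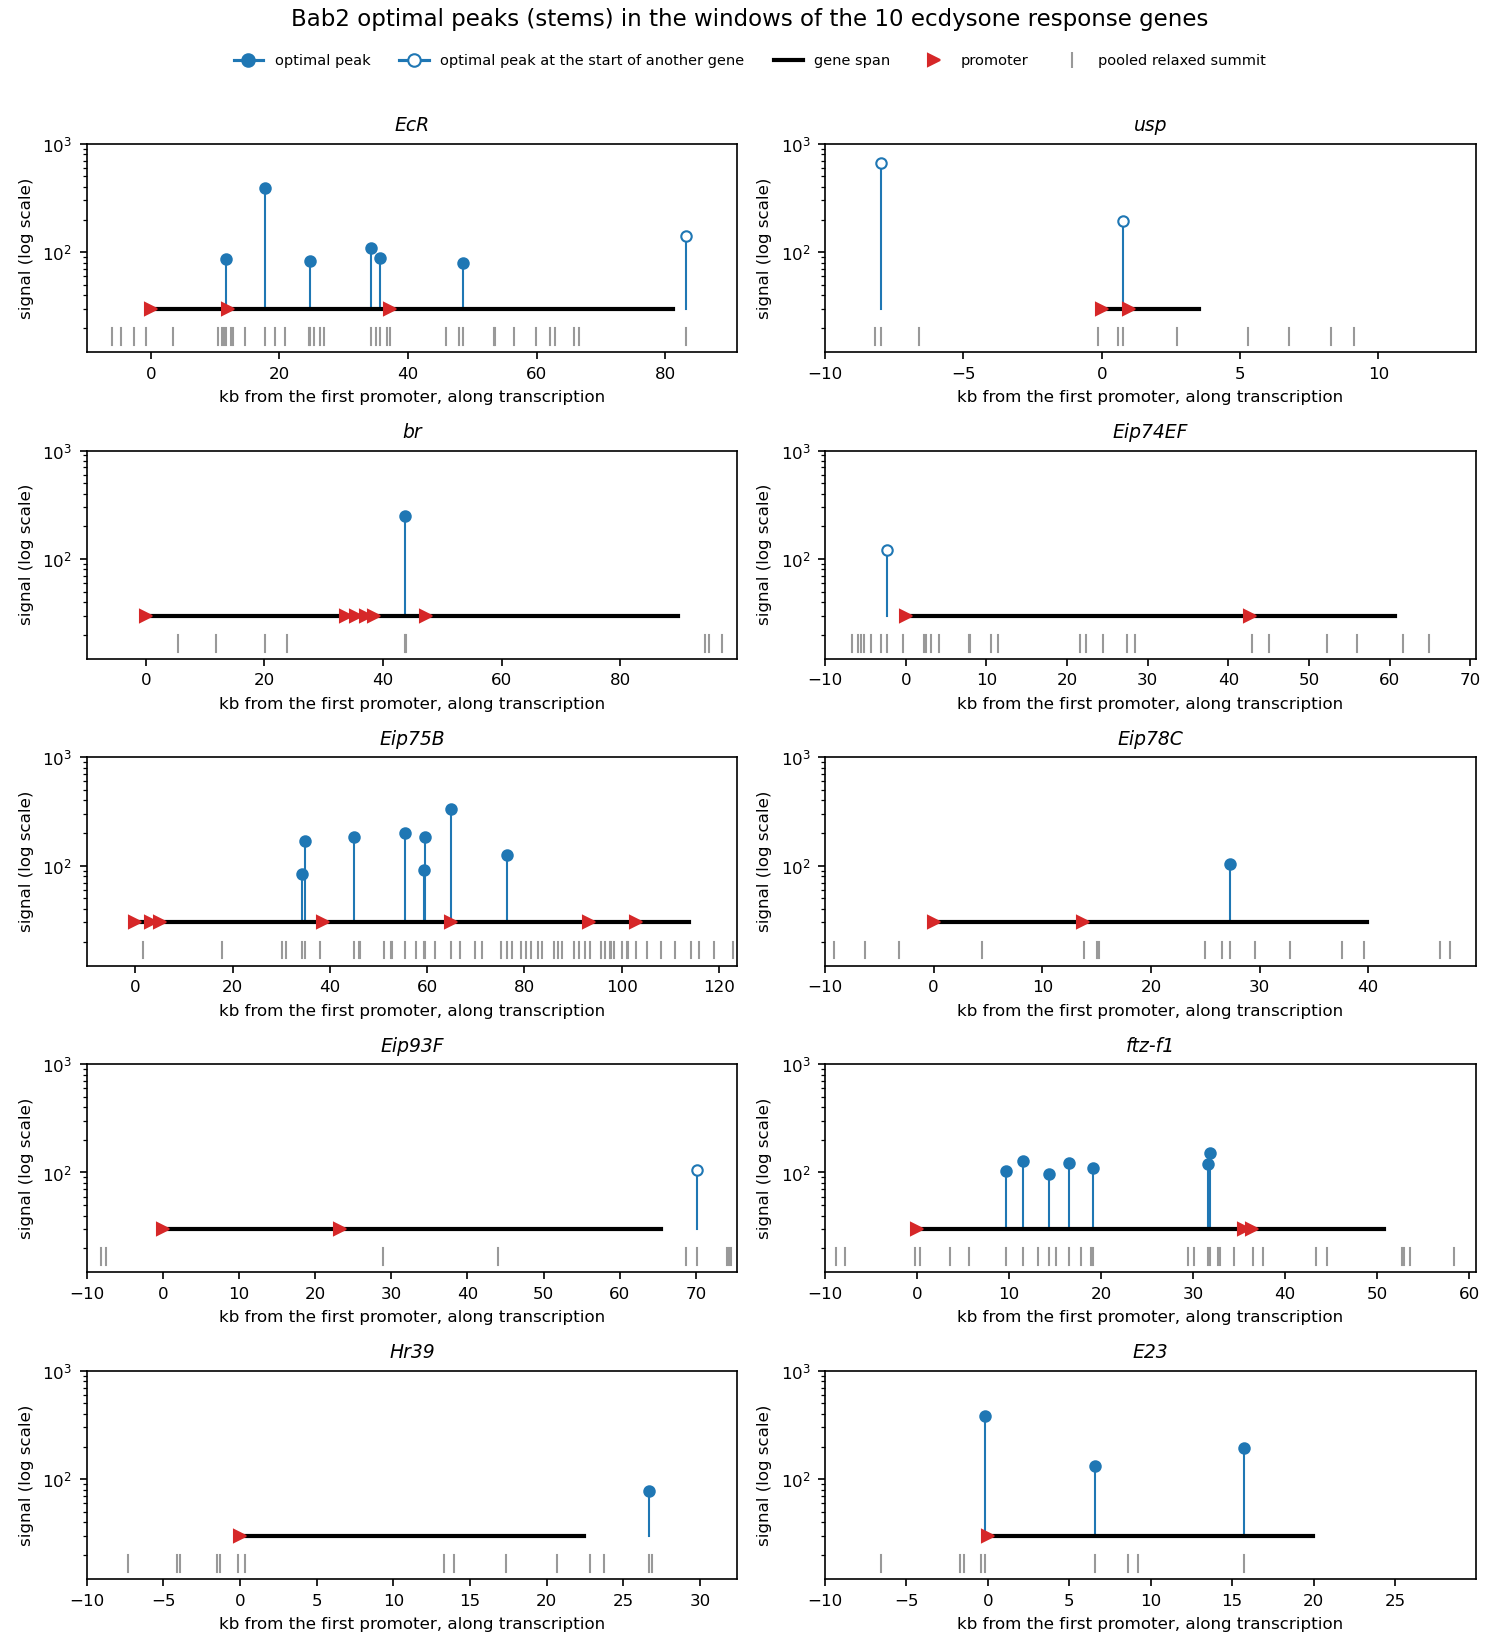
Each panel is 1 gene with 10 kb on either side, in kb from its first promoter along transcription; stems give the signal of optimal peaks (log scale), open where the summit is within 500 bp of the start of another gene, the black bar is the gene span, red arrowheads are promoters and grey ticks are pooled relaxed summits. *EcR*, *Eip75B* and *ftz-f1* carry rows of stems inside their spans, while *Eip74EF*, *Eip93F* and *Hr39* have their only stem outside.

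The hormone receptor genes both had a peak at a promoter, and the window of each held a stronger peak elsewhere. The stronger peak in the *usp* window lay outside the gene. *EcR*, the ecdysone receptor, spans chr2R:6087873-6169087 on the minus strand with 6 transcripts from 3 promoters. Its strongest peak, at chr2R:6151235-6151391, had a signal of 394 and rank 291, with 181 in replicate 2 (rank 266) and 215 in replicate 3 (rank 317). That summit lies in an intron, 5821 bp downstream of the second promoter, which starts EcR-RD and EcR-RE. The promoter itself had a weaker peak 314 bp upstream of the start, with a signal of 86.2 (rank 4003), 43.4 in replicate 2 and 43.2 in replicate 3. So the strongest signal in the receptor gene was 5821 bp from a start. The peak at a promoter, also in an intron, was in the lower part of the list. In all, 4 of the 7 *EcR* peaks lay between promoters 2 and 3, in introns that also hold the small gene *CG14589*. Promoter 3 (EcR-RB, EcR-RC and EcR-RG) had no optimal summit but 2 pooled relaxed ones, the stronger with a signal of 64.6 (rank 5869), and summits in replicate 2 (best rank 4714) and replicate 3 (best rank 7426), and the first (EcR-RA) had none within 500 bp in any list. The second strongest *EcR* peak, with a signal of 140.0 (rank 2047), 74.8 in replicate 2 and 62.0 in replicate 3, lay outside the span, 2075 bp downstream and 173 bp from the start of *Ars2*, an RNA-processing gene. A further peak, at chr2R:6134616-6135039, was intronic, with a signal of 108 (rank 2978), 47.6 in replicate 2 and 69.6 in replicate 3.

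*usp* encodes the partner of EcR and is the shortest of the 10 genes, at chrX:2038798-2042311 on the minus strand. The strongest peak of the whole set was in its window, at chrX:2050138-2050461, with a signal of 662 (rank 91), 273 in replicate 2 (rank 105) and 390.1 in replicate 3 (rank 82). It belongs to *usp* by distance alone. Its summit is 7985 bp upstream of *usp* and 176 bp from the start of *moody*, a receptor gene of the glia that seal the blood-brain barrier, inside an intron of *CG4313*. The other *usp* peak, at chrX:2041316-2041739, lay in the 5′ UTR of usp-RB and 216 bp upstream of the start of usp-RA. It had a signal of 196 (rank 1194), 92.4 in replicate 2 (rank 1085) and 98.4 in replicate 3 (rank 1445). The summit is also within 500 bp of the start of *CG4313* and in an intron of *Actn*, which encodes alpha-actinin.

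Among the first-tier transcription factors, *Eip75B* had the most optimal peaks of the 10 genes, while *br* and *Eip74EF* had 1 each. *br* encodes the Broad zinc finger proteins, which carry a BTB domain as Bab2 does. Its only optimal peak, at chrX:1618669-1619092, had a signal of 249.9 (rank 776), 107 in replicate 2 (rank 854) and 141 in replicate 3 (rank 756). The summit lies in an intron after the fifth of 6 promoters, 3427 bp upstream of the last, and also in an intron of *Mur2B* on the other strand, whose nearest start is 726 bp away. None of the 6 *br* promoters, which start 16 transcripts, had a summit within 500 bp in the optimal, pooled or replicate lists. The *br* window was poor in peaks in every list, with 9 pooled, 10 replicate 2 and 9 replicate 3 peaks in 109.7 kb.

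*Eip74EF* encodes ETS-domain proteins and spans chr3L:17558672-17619325 on the minus strand. Its single optimal peak, at chr3L:17621483-17621906, had a signal of 120.4 (rank 2565), 58.8 in replicate 2 (rank 2297) and 61.4 in replicate 3 (rank 2892). That summit is 2370 bp upstream of the gene and sits between the starts of *Vps60* and *anchor*, 70 bp from that of *Vps60*, so no optimal peak lay in the *Eip74EF* span. The relaxed lists did have summits there, 17 of them pooled. At the second promoter (Eip74EF-RB and Eip74EF-RD) the pooled signal was 64.0 (rank 5939), with 28.9 in replicate 2 and 31.5 in replicate 3.

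*Eip75B*, which encodes the nuclear receptor E75, a protein that binds heme, spans chr3L:17950953-18064696 on the minus strand with 7 transcripts from 7 promoters. All 8 of its optimal summits lay in introns, and 1 of the promoters had a summit. The strongest peak, at chr3L:17999618-18000041, was 9 bp upstream of the start of Eip75B-RC, the fifth promoter. It had a signal of 334 (rank 433), 165 in replicate 2 (rank 327) and 167 in replicate 3 (rank 543). The next, at chr3L:18008992-18009415, had a signal of 198 (rank 1175), 78.0 in replicate 2 and 116 in replicate 3, and the peak at chr3L:18019595-18020018 had 185 (rank 1320), 102 in replicate 2 and 84.8 in replicate 3. These peaks all belong to 1 stretch of the gene: 5 of the 8 summits lay between the fourth promoter (Eip75B-RG) and the fifth, counting the one just upstream of Eip75B-RC. Before the fourth promoter lay 2 more, at ranks 1516 and 4124, and after the fifth lay 1, at rank 2454. The first 3 promoters, which lie within a short stretch at the head of the gene, were 29151 bp or more from any optimal summit and had no pooled summit within 500 bp. The second promoter (Eip75B-RE) did have a summit within 500 bp in both replicate lists, with best rank 10689 in replicate 2 and 22597 in replicate 3.

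The nuclear receptors of the later tiers differed from each other. *ftz-f1* encodes a receptor that makes cells competent for the next hormone pulse and that works with the Fushi tarazu protein in segmentation of the embryo. It spans chr3L:18750607-18801309 on the minus strand, and its 7 optimal summits all lay in the intron between the first promoter (ftz-f1-RB) and the second (ftz-f1-RC and ftz-f1-RD). None was within 500 bp of any of the 3 promoters, and the nearest was 3706 bp upstream of the second. The strongest, at chr3L:18769238-18769661, had a signal of 150 (rank 1847), 70.3 in replicate 2 (rank 1726) and 78.9 in replicate 3 (rank 1994). It overlaps the peak of rank 2605, whose summit is 3906 bp upstream of the same promoter. At chr3L:18789562-18789985 the signal was 127 (rank 2385), with 73.1 in replicate 2 and 56.2 in replicate 3. At chr3L:18784546-18784969 it was 122 (rank 2519), with 46.0 in replicate 2 and 77.6 in replicate 3. The *ftz-f1* peaks were thus many and of middling strength, ranging in signal between 97.0 and 150.

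*Hr39* encodes a receptor closely related to FTZ-F1. It had no optimal summit in its span. The 1 optimal peak of its window, at chr2L:21263686-21264109, lay 4223 bp downstream, in an intron of *CG8671*. It was the weakest of the set, with a signal of 77.3 (rank 4626), 23.2 in replicate 2 (rank 9476) and 56.1 in replicate 3 (rank 3252). *Eip78C* encodes a receptor related to E75. Its peak, at chr3L:21253684-21254107, was intronic, 13549 bp downstream of the second promoter (Eip78C-RB), with a signal of 104 (rank 3123), 33.0 in replicate 2 (rank 5483) and 72.0 in replicate 3 (rank 2316). The ratio of replicate 3 to replicate 2 signal was 2.42 for the *Hr39* peak and 2.18 for the *Eip78C* peak, and neither was among the 4720 strongest of replicate 2.

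*Eip93F* encodes a DNA-binding factor needed for death of larval tissues and for adult fate. It spans chr3R:21949114-22014539 on the plus strand and had no optimal summit inside. The peak of its window, at chr3R:22019056-22019479, lay 4729 bp downstream in the 5′ UTR of *Idh3b*, a gene for a subunit of isocitrate dehydrogenase, 84 bp upstream of its nearest start. It had a signal of 106 (rank 3076), 37.4 in replicate 2 (rank 4537) and 69.8 in replicate 3 (rank 2429). *Eip93F*, *Eip74EF* and *Hr39* are thus counted among the 10 genes with a peak only through the 10 kb on either side.

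*E23* encodes an ABC transporter that dampens the ecdysone response, and it is the only member of the set here that is neither a receptor nor a transcription factor. It has 1 promoter, at the head of chr2L:3334875-3354829 on the minus strand. Its strongest peak, at chr2L:3354912-3355149, was 208 bp upstream of that start, in intergenic DNA, with a signal of 382 (rank 318), 159 in replicate 2 (rank 368) and 223 in replicate 3 (rank 289). This was the strongest peak at an own promoter among the 10 genes. Both other peaks were intronic, with a signal of 194 (rank 1223), 81.3 in replicate 2 and 118 in replicate 3 at chr2L:3338861-3339284, and of 133 (rank 2205), 58.3 in replicate 2 and 75.1 in replicate 3 at chr2L:3348069-3348492.

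Few of the promoters had an optimal peak, as is the case for other genes. The 10 genes have 54 transcripts from 35 start positions, which make 29 promoters when starts within 500 bp are joined. An optimal summit lay within 500 bp of 4 of these 29 promoters, where the share was 17.3% over all promoters of protein-coding genes and 16.5% over those of genes with 2 or more promoters. A pooled relaxed summit lay at 14 of the 29, where the share was 44.1% over all promoters and 48.5% over those of genes with 2 or more promoters. Of the 8 genes with 2 or more promoters, none had an optimal summit at all of them and 3 had one at some (*EcR*, *usp* and *Eip75B*), in each case at 1 promoter. The 29 include the single promoters of *E23*, with an optimal summit, and *Hr39*, without one, and both had pooled summits. The shares for genes with 2 or more promoters are therefore not over a like set. Over all 29, the shares with an optimal or a relaxed summit were close to those of all promoters of protein-coding genes.

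**Figure D2:**
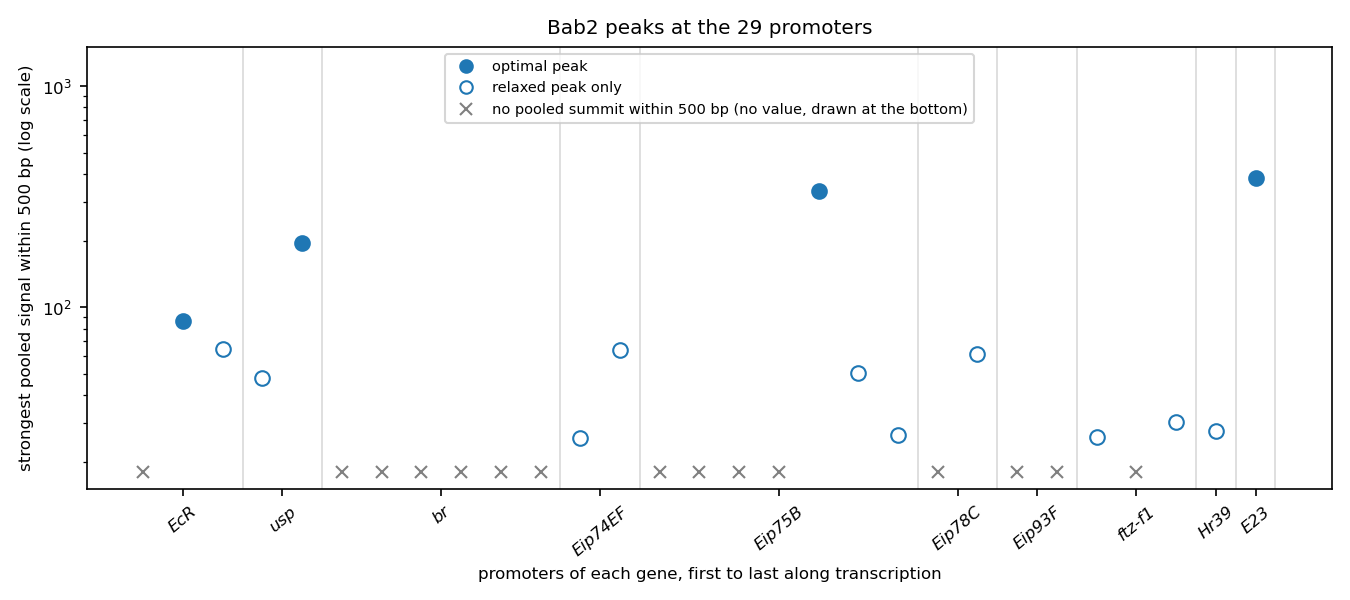
For each of the 29 promoters, in order along transcription, the strongest pooled signal within 500 bp (log scale); filled points are optimal peaks, open points relaxed peaks only, and crosses mark promoters with no pooled summit. Filled points stand at 4 promoters, from 86.2 at *EcR* to 382 at *E23*, and all 6 *br* promoters are crosses.

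How dense the optimal peaks were depends on the genes they are set beside. The median over the 10 genes was 0.0417 optimal peaks per kb, against 0.0447 over all protein-coding genes, 0.0407 over genes as long as *usp* or longer and 0.0248 over genes of 20 kb or more, whose windows (median 57.0 kb) are the nearest in length. In the gene spans alone the medians were 0.0477 for the 10 genes, 0.00688 for genes of 20 kb or more and 0 for all genes. With the full optimal list, the median of the 10 genes was thus near that of all genes per kb of window and above that of the long genes. This holds for the median only: *Hr39*, *Eip78C*, *Eip74EF*, *Eip93F* and *br* were each below the 0.0248 of the long genes. Of the genes above it, *usp* (span 3.51 kb) and *E23* (19.96 kb) are themselves shorter than 20 kb. In the pooled list the medians were 0.344 for the 10 genes, 0.230 for all genes and 0.183 for those of 20 kb or more. Replicate 2 gave 0.367 for the 10 genes, 0.267 for all and 0.210 for the long genes, and replicate 3 gave 0.329 for the 10 genes, 0.238 for all and 0.201 for the long genes. In the relaxed lists the median of the 10 genes was above both other medians in each replicate, while *br* and *Eip93F* were below both. None of these differences was tested. The spread within the set was wide. *ftz-f1* had 0.0990 optimal peaks per kb, with 83.9% of all genes below it, or 0.0849 when its overlapping pair is counted once. *usp* had 0.0851, from 2 peaks that both lie within 500 bp of the start of another gene, and none is left without such peaks. The order of *ftz-f1* and *usp* thus rests on how peaks are counted. *E23* followed with 0.0751, *EcR* with 0.0692 and *Eip75B* with 0.0598, or 0.0523 with its overlapping pair counted once. *Hr39* with 0.0236, *Eip78C* with 0.0167, *Eip74EF* with 0.0124, *Eip93F* with 0.0117 and *br* with 0.00911 rest on 1 peak each, so their order is the order of their window lengths. In the pooled list *br* (0.0820) and *Eip93F* (0.105) were again the lowest, with 15.2% and 22.9% of all genes below them, while *Eip74EF* (0.335) and *Hr39* (0.354) stood near the middle of the 10.

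**Figure D3:**
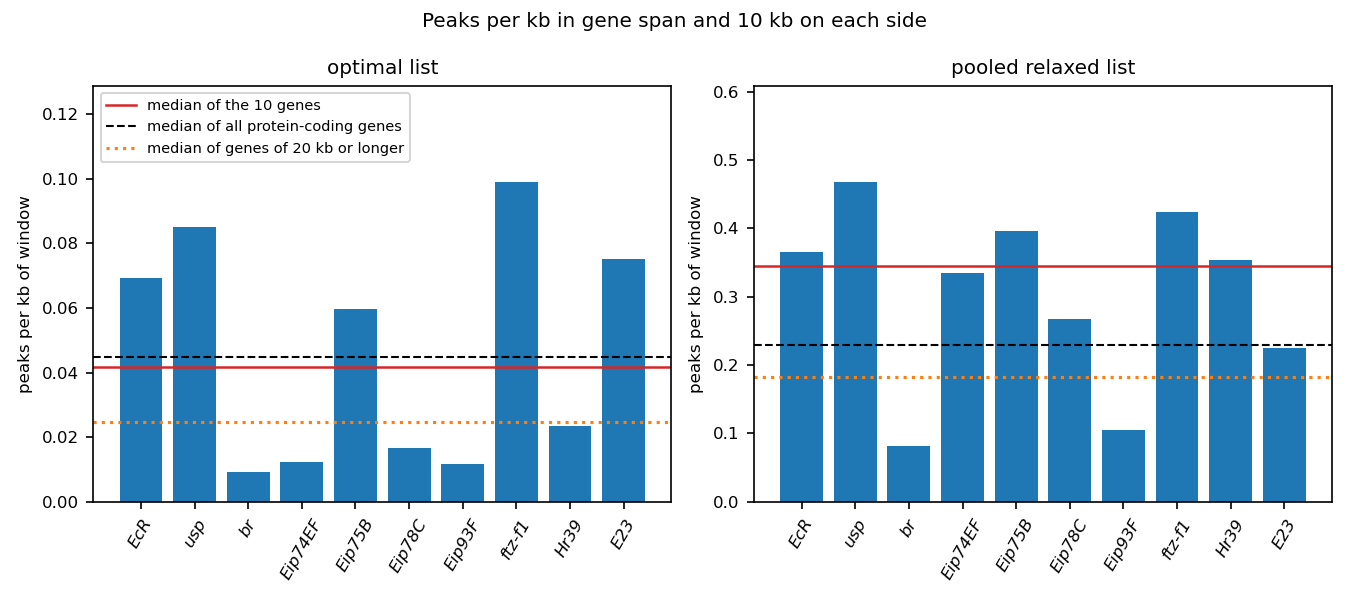
Bars give optimal (left) and pooled relaxed (right) peaks per kb of gene span with 10 kb on either side, and lines give the medians of the 10 genes, of all protein-coding genes and of genes of 20 kb or more. In the optimal list the median of the 10 genes (0.0417) is just under that of all genes (0.0447) and above that of long genes (0.0248), and in the pooled list it is above both (0.344 against 0.230 and 0.183).

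Both libraries held the peaks. All 32 had a summit within 200 bp in both full replicate lists, as did 4701 of all 4720 optimal peaks. For 26 of the 32 such a summit was among the 4720 strongest of each replicate, a share that was 79.1% for all optimal peaks. Since the optimal list was chosen for such agreement, this describes the peaks and is no independent check of them. The ratio of replicate 3 to replicate 2 signal had a median of 1.21 over the 32 peaks and 1.24 over all optimal peaks. It ranged between 0.494 and 3.41, both in *Eip75B*. The highest ratio belongs to the *Eip75B* peak of rank 3697, which overlaps the peak of rank 1344 and had only rank 15524 in replicate 2. The lowest belongs to the *Eip75B* peak of rank 4124, with a signal of 50.4 in replicate 2 and 24.9 in replicate 3. The strongest peaks of *usp*, *EcR*, *E23*, *Eip75B* and *br* had ranks between 82 and 854 in both replicates. The median signal of the 32 peaks was 123, against 128 for the whole optimal list, and 14 of the 32 were among its 2360 strongest.

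**Figure D4:**
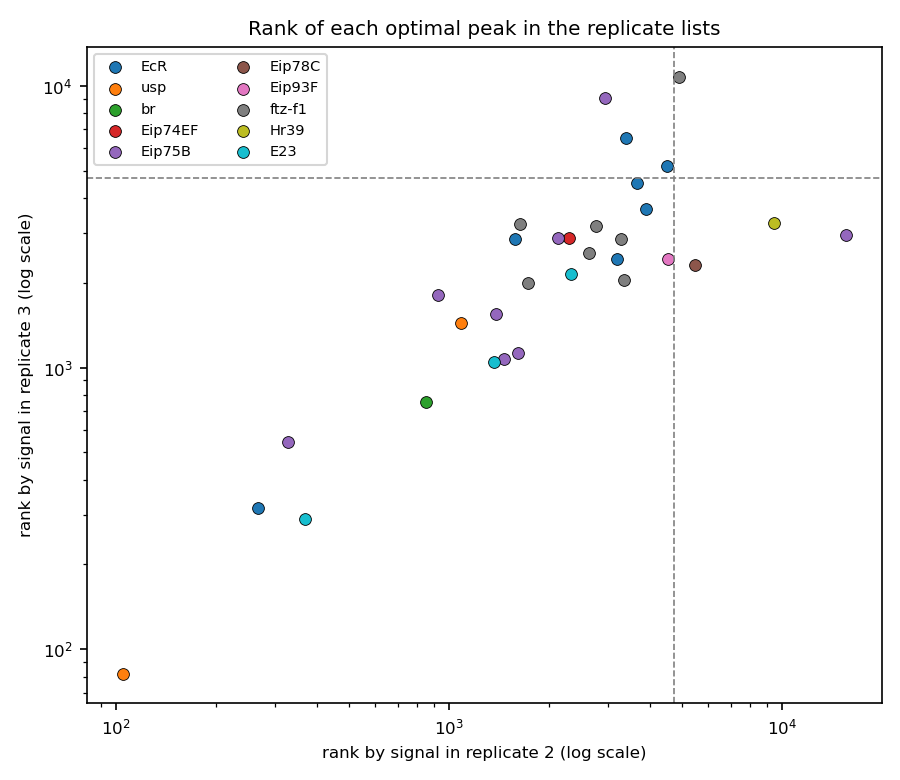
Each point is 1 of the 32 optimal peaks, by its rank in replicate 2 and in replicate 3 (log scales, rank 1 is the strongest); dashed lines mark rank 4720. The peak next to *usp* is at ranks 105 and 82, and the points beyond a dashed line come from *EcR*, *Eip75B*, *Eip78C*, *ftz-f1* and *Hr39*.

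The sequences under the summits were searched for the letters of factors known in this pathway, reading both strands up to 50 bp away on each side. The nuclear receptor half-site AGGTCA was in 0 of the 32 peaks, against 89 of all 4720 optimal peaks (1.89%) and 1.62% of windows of the same length at start sites. The longer word CAAGGTCA of FTZ-F1 and Hr39, which contains AGGTCA, was in 0, against 0.106% of all optimal peaks and 0.148% of start site windows. The palindromic ecdysone response element was in 0, against 1 of 4720 optimal peaks and 1 of 19607 start site windows. These letters were rare in both backgrounds, and no match says only that the letters are not in these windows. Over the whole peak, AGGTCA was found in 2 of the 32, 194 bp from the summit in the *Eip75B* peak of rank 2454 and 136 bp from it in the *ftz-f1* peak of rank 2881, against 363 of 4720 (7.69%).

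Among the other words, GAGAG of the GAGA factor was in 3 of the 32 peaks (9.38%), against 10% of all optimal peaks and 12.7% of start site windows. The word TAATTA, common to homeodomain proteins, was in 3 (9.38%), against 7.44% of all optimal peaks and 2.97% of start site windows. CAGGTAG of Zelda, TATCGATA of DREF and GGTCACACT of core promoters were in 0 of the 32, against 0.445%, 1.99% and 0.657% of all optimal peaks and 0.485%, 4.47% and 3.65% of start site windows. The words TAAATA and AGATGGCG were added after the data were seen. TAAATA was in 13 of the 32 (40.6%), against 25.6% of all optimal peaks and 13% of start site windows, and can overlap TAATTA by shared letters, as it does in the *ftz-f1* peak of rank 2881. AGATGGCG was in 2 of the 32, both in *Eip75B* (ranks 1320 and 2454), against 1.12% of all optimal peaks and 0.311% of start site windows. A word match is a description of letters and not of a bound site. The median share of A and T around the summit was 62.9% for the 32 peaks and 65.3% for all optimal peaks, and the strongest of the 32, next to *usp*, was the lowest in A and T at 46.5%.

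The other genes of the pathway, 60 matched by name from a list of hormone synthesis, transport, coactivator, receptor and target genes, give the setting of the 10. Of these 60, 48 had an optimal summit in their window and 16 (26.7%) had one within 500 bp of a start, where 63.1% of all protein-coding genes had one in the window and 20.1% at a start. By group, a start-site summit was found for 3 of 15 genes of steroid synthesis and turnover. The prothoracicotropic hormone and its receptor had 0 of 2, and the importer and the membrane receptor 2 of 2. Of 7 genes listed as coactivators and corepressors, 4 had one, among them the chaperone genes *Hsp83* and *Hsc70-4*. A start-site summit was found for 1 of 7 other nuclear receptors, 5 of 25 other responsive genes and 1 of 2 juvenile hormone receptors. The shares of steroid synthesis genes and of other responsive genes, 20% each, are those of all genes, and the other groups hold few genes. All 7 of the other nuclear receptors had a summit in the window, with the most, 11, at *Hr4*. The strongest start-site peaks were those of *Hr96*, a nuclear receptor of lipid and toxin responses, with a signal of 405 (rank 271), of *ImpL3* (now *Ldh*, lactate dehydrogenase) with 315, and of *Eip63F-1*, which encodes a calcium-binding protein, with 300.5. Next came the cell death gene *hid* with 242, the chaperone genes *Hsp83* with 215 and *Hsc70-4* with 136, *dre4*, which encodes a subunit of the FACT histone chaperone, with 131, the zinc finger gene *woc* with 121, the coactivator gene *tai* with 119 and the ecdysone importer gene *Oatp74D* with 116. Among the 10 ecdysone response genes, *E23* with 382 and *Eip75B* with 334 stood in the range of the strongest of these.

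The limit of 10 kb left some neighbouring peaks out. The farthest summit inside the 10 kb was the one next to *usp*, at 7985 bp. Just outside, *Eip78C* had a summit at 10084 bp with a signal of 116, *EcR* had one at 11208 bp with 280.1, and *Eip93F* had one at 11842 bp with 77.4.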

How the data were processed

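Both libraries came as narrowPeak lists on dm6 (the dm3 lists were not used): a relaxed list per replicate, a pooled relaxed list, and the optimal list selected by irreproducible discovery rate, with a control used in calling, per the deposited README files. The authors' deposited signal per peak was used to rank each list. For the optimal list the deposited −log10 q-value ran between 2.65 and 3.90 and was not used to rank. Summits were computed from the deposited offset. Aligner, peak caller, their versions and depth are not given in the sources used here. Summits were joined to the Ensembl 115 annotation (FlyBase 6.54), whose coordinates for the 10 genes are those of RefSeq in 10 of 10 cases. No test was made, since there is 1 group. The 10 genes and the lists were chosen with earlier results of these data known. By rule, up to 3 peaks per gene by signal, every neighbour with a start within 500 bp of a summit, and the 10 strongest start-site peaks of other pathway genes were named; peaks outside this rule were named after their values were seen. Of 63 pathway names, 6 were matched through a newer symbol, 2 (*Eip71A* and *Eip71B*) were not matched and 1 repeated a gene. The counting steps were tested on simulated data. Python 3.11.15, numpy 2.4.6, scipy 1.17.1 and matplotlib 3.10.9 were used. The alternatives were another flank, start-site window or overlap rule, the 2360 strongest optimal peaks, and each replicate alone.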

Additional observations from a re-analysis of the deposited data

How the results depend on the processing

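The counts were recomputed with other flanks, start-site windows, overlap rules, the 2360 strongest optimal peaks, and each replicate's own 4720 strongest peaks. Among the 2360 strongest, 6 of the 10 genes kept a summit in the window (45.6% of all genes), with 14 peaks. The median was 0.0116 peaks per kb, against 0 over all genes. Start-site summits stood at 3 genes (11.7% of all genes). Leaving out 1 replicate gave 8 to 10 genes (62.6% to 63.2% of all genes) and 29 to 34 peaks. It gave 4 genes with a start-site summit (19.6% to 20.1% of all genes) and 4 to 5 promoters. The median was 0.0324 peaks per kb without replicate 3 and 0.0423 without replicate 2, against 0.0445 over all genes in both settings. How near the 10 genes stood to all genes thus depended on the setting. Without replicate 3, *Eip78C* and *Hr39* had 0 peaks, and without replicate 2, *Eip93F* had 3 and *br* and *Eip74EF* had 2 each. Gene spans alone left 7 genes and 26 peaks, and the share of all genes with a summit in the span was not counted. Against the 2360 strongest peaks of each replicate, 13 of the 32 were among the strongest of both, a share not counted over all optimal peaks. AGGTCA was in 2 peaks over the whole peak. With alternatives chosen after seeing the data, dropping peaks at the start of another gene left 7 genes and 27 peaks, a setting not counted over all genes. Also chosen after seeing the data, counting overlapping peaks once gave a median of 0.0380 peaks per kb, and matching by the nearest replicate summit left 25 of the 32. The other settings stayed within 1.5 times of the values in the text for the counts over all 10 genes, and 33 of 50 counts for single genes did. No paired analysis was possible because there is only 1 group. Depth is unknown, so peaks that were not called cannot be told from absent binding, and in whole embryos binding in few cells and weak binding in many cannot be told apart.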
